A study of Mus musculus with 12 samples.

Results

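The 9 genes that mark B cells and plasma cells were followed in pancreatic tumours, tumour by tumour. Members were the non-control probes whose gene name on the array was Ms4a1, Cd79a, Cd79b, Blk, Pou2af1, Mzb1, Jchain, Derl3 or Tnfrsf17, and they made up 9 of the 37008 genes with a probe. Ms4a1 had 2 probes and each other gene 1, giving 10 probes. The tumours were KP orthotopic tumours, grown in the pancreas of female C57BL/6 mice aged 8 weeks. FAKi tumours (6 arrays) came from mice given a focal adhesion kinase inhibitor by gavage at 50 mg per kg for 14 days, and vehicle tumours (6 arrays) from mice given vehicle for 14 days. All 12 tumours shared the KP genotype, the strain, the sex and the age. The labels do not say which Cre or cell line the KP tumours came from. RNA came from pieces of whole tumour, so fewer cells of a type and less RNA per cell cannot be told apart. The arrays carried 1 colour, and every value below is the log2 signal minus the 75th percentile of its own array, so that 0 is the 75th percentile itself. Probes differ in brightness for the same amount of RNA, so values were compared only within a probe.

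B cells sense antigen through a surface immunoglobulin that signals through the paired chains CD79A and CD79B, and the Src-family kinase BLK acts just downstream. When a B cell becomes a plasma cell it lowers surface proteins such as CD20, the product of Ms4a1, and builds a large endoplasmic reticulum for antibody secretion. MZB1 is a chaperone in that compartment, the J chain links polymeric IgA and IgM, and Derlin-3 takes part in removing misfolded proteins from it. Derl3 and Mzb1 are also used by plasmacytoid dendritic cells and by other secretory cells.

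None of the members differed between FAKi and vehicle tumours at an adjusted p under 0.05. Derl3, Blk and Cd79b had mean differences of -1.0, -1.65 and -0.66 on the log2 scale, each with an unadjusted p under 0.05. Mzb1 and Jchain varied together from tumour to tumour in both treatments, with Mzb1 spanning 9.65-fold. Cd79a and Cd79b, the chains of 1 receptor, had no such relation that passed the test.

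The arrays held 59305 spots that were not controls, with 66.6 to 76.1% of them well above background. Vehicle 6 was the dimmest array, with a 75th percentile of 11.82 on the log2 scale, and the highest was 13.88. The arrays lay on 5 slides. Slide 1 carried FAKi 5 with vehicle 3 and 5, slide 4 carried FAKi 1 with vehicle 2 and 6, and the other slides held 1 treatment each. The labels number the tumours without giving litters or days, so p-values measure the spread between these samples. The comparison of FAKi with vehicle was fitted with limma over 27354 genes, those with a probe that 6 or more arrays read well above background. Across all those genes 0% were called at an adjusted p under 0.05, and the smallest adjusted p by limma was 0.354. Without FAKi 1 the call count was 3 genes, none of them a member. An unadjusted p under 0.05 was reached by 1311 genes, or 4.79%, of which 568 genes (2.08%) were lower and 743 genes (2.72%) higher in FAKi tumours. Of the 9 members, 8 entered the fit and Tnfrsf17 did not. Of the 8, 3 had an unadjusted p under 0.05, all lower in FAKi tumours, beside that 2.08% of all genes, and 0 were called. With slide as a fixed block 0 members had an unadjusted p under 0.05. That fit takes its difference only from slides 1 and 4, so from FAKi 1 and 5 against vehicle 2, 3, 5 and 6. It is therefore no slide adjustment of the comparison of all the tumours. With single arrays left out the number of members ran from 1 (without FAKi 3, FAKi 6, vehicle 2 or vehicle 3) to 5 (without FAKi 5). The FAKi and vehicle values overlapped for every member, as they did for all but 0.239% of the genes with a value on each array. A difference below 0 was found in 7 of the 8 members and in 39.5% of all genes, and their median difference was -0.71 against 0.08 for all genes. Within slide 1 the members' median was 0.17 with 3 of 8 below 0, beside 9873 of the 27354 genes. Within slide 4 it was -1.19 with 8 of 8 below 0, beside 17906 genes. With slide as a fixed block it was -0.53 with 6 of 8 below 0, beside 14594 genes. The members can come from the same cells and were chosen with earlier results of these data known, so these counts describe them and carry no p.

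**Figure D1:**
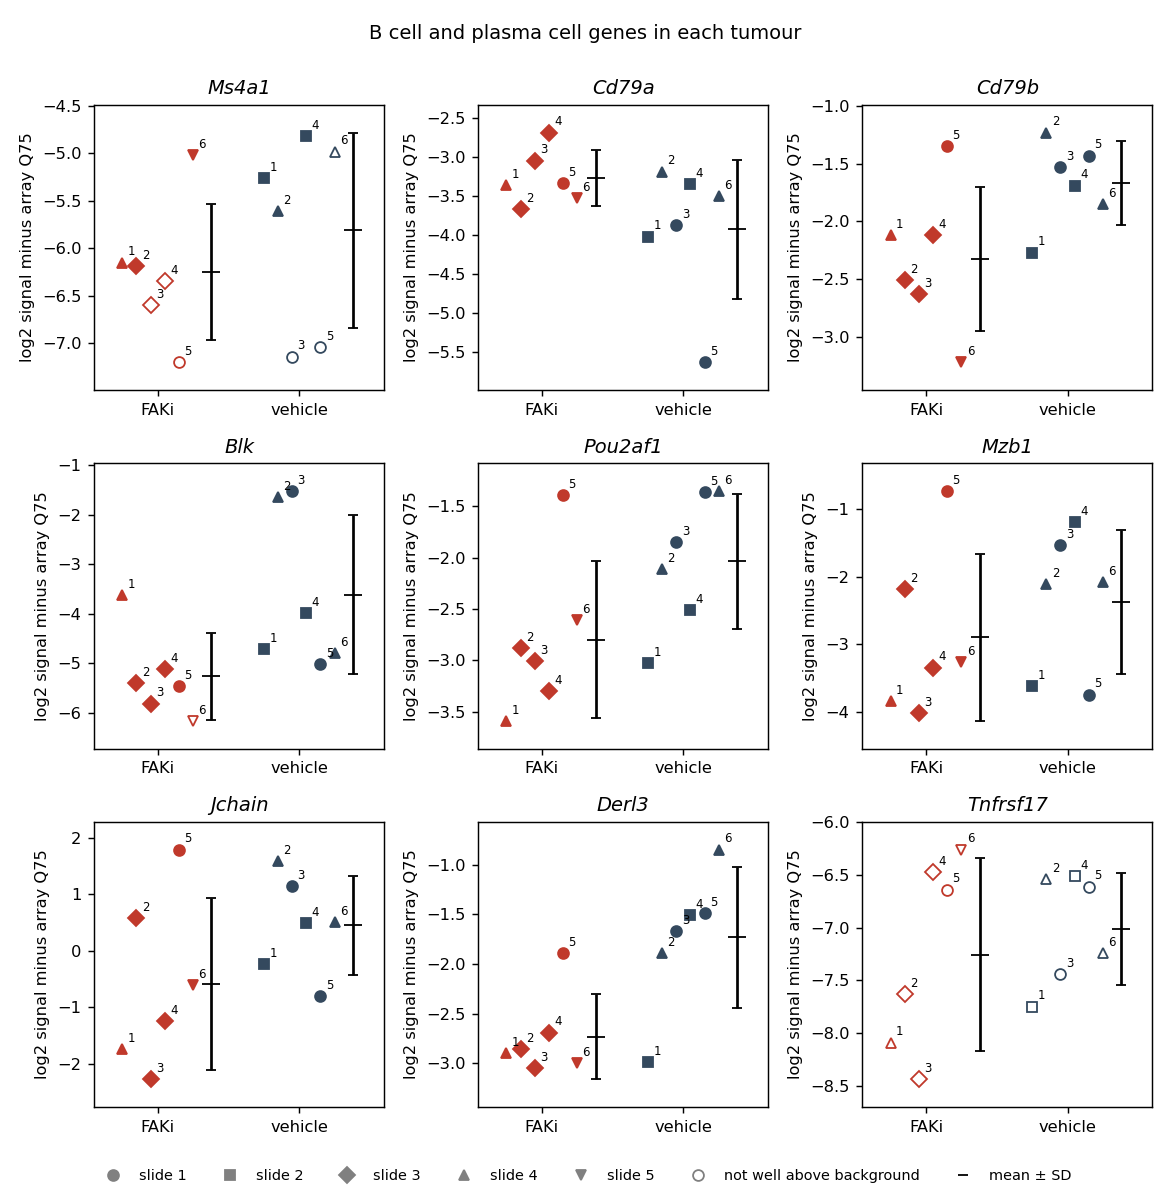
Log2 signal minus the 75th percentile of the array (y axis) for the 9 members, with FAKi tumours left and vehicle tumours right. Points are tumours with their replicate numbers, shapes are slides, open points were not well above background, and bars are the mean and SD over 6. The groups overlap for every gene, and FAKi 5 is the highest FAKi tumour for Jchain, Mzb1, Pou2af1, Derl3 and Cd79b.

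The probe of Cd79a, which encodes the alpha chain of the receptor's signalling pair, lies on the plus strand at chr7:25684357-25684614 in mm9 and crosses an exon boundary, its 60 bases covering 258 bases of the genome. The probe of Blk lies on the minus strand at chr14:63997333-63998470 in mm9 and its 60 bases cover 1138 bases of the genome. Both are shown because unspliced RNA and genomic DNA hold no unbroken copy of them, unlike the other member probes, which each match 1 stretch of 60 bases.
Cd79a probe: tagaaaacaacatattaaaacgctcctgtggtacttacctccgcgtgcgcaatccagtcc
Blk probe: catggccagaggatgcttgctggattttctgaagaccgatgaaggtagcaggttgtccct

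Cd79a read -3.36, -3.67, -3.05, -2.69, -3.34 and -3.53 in FAKi tumours 1 to 6, against -4.02, -3.19, -3.87, -3.35, -5.63 and -3.50 in vehicle tumours 1 to 6. The FAKi tumours lay close together, and vehicle 5 sat far below every other tumour. Cd79a was the only member with a higher mean in FAKi tumours, -3.28 ± 0.35 against -3.93 ± 0.89 in vehicle tumours (SD, n = 6 each). The difference was 0.65 with an SE of 0.37 (95% interval -0.15 to 1.45), and limma gave an adjusted p of 0.999. Without vehicle 5 it was 0.31.

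Cd79b, which encodes the beta chain and is read at chr11:106172780-106172839 (mm9, minus strand), had its lower mean in FAKi tumours. It read -2.12, -2.51, -2.63, -2.12, -1.35 and -3.22 in FAKi tumours, against -2.27, -1.23, -1.53, -1.69, -1.43 and -1.85 in vehicle tumours. In Cd79b, 5 of 6 FAKi tumours lay below the vehicle mean, while FAKi 5 stood among the higher vehicle tumours. The means were -2.33 ± 0.63 in FAKi tumours and -1.67 ± 0.36 in vehicle tumours (SD, n = 6 each). The difference was -0.66 with an SE of 0.30 (95% interval -1.30 to -0.02), an unadjusted p of 0.0448 and an adjusted p of 0.999 by limma. Within slide 1 the difference turned to 0.12, and within slide 4 it was -0.58. A fixed slide block, whose difference rests on those slides alone, gave -0.23.

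Blk, the receptor-proximal kinase, had the widest mean difference of the members. Its values were -3.62, -5.39, -5.81, -5.12, -5.45 and -6.16 in FAKi tumours, against -4.71, -1.64, -1.52, -3.99, -5.01 and -4.79 in vehicle tumours. Vehicle 2 and vehicle 3 stood more than 2 log2 units above the next vehicle tumour. FAKi 1 was the highest FAKi tumour and lay above 4 vehicle tumours, so the groups overlapped. The means were -5.26 ± 0.88 in FAKi tumours and -3.61 ± 1.61 in vehicle tumours (SD, n = 6 each), a difference of -1.65 with an SE of 0.66 (95% interval -3.08 to -0.22). FAKi tumours had 0.319 times the vehicle signal. The unadjusted p was 0.0268 and limma's adjusted p 0.999, and with normexp background correction the difference was -0.80. Background was cleared well by the Blk probe on 5 of 6 FAKi arrays and 6 of 6 vehicle arrays.

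Ms4a1, the CD20 gene, was read close to background. The brighter of its 2 probes, at chr19:11324334-11324393 (mm9, minus strand), was well above background on 3 of 6 FAKi and 3 of 6 vehicle arrays. It ranged from -7.20 to -5.02 with a median of -6.27 in FAKi tumours, against -7.14 to -4.82 with a median of -5.43 in vehicle tumours. Each group spread over more than 2 log2 units and the groups covered nearly the same range. The difference was -0.44 with an SE of 0.47 (95% interval -1.45 to 0.56), and limma's adjusted p was 0.999. With normexp background correction the difference turned to 0.08. The second probe was well above background on 0 of 6 FAKi and 1 of 6 vehicle arrays, so no fold is given for it.

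Pou2af1 encodes a coactivator that binds the octamer factors and is needed for germinal centres. Its probe at chr9:51048108-51048167 (mm9, plus strand) read -3.59, -2.88, -3.01, -3.30, -1.39 and -2.61 in FAKi tumours, against -3.03, -2.11, -1.85, -2.51, -1.36 and -1.35 in vehicle tumours. FAKi 5 reached the top of the vehicle range while the other 5 FAKi tumours lay below the vehicle mean. The means were -2.80 ± 0.77 in FAKi tumours and -2.04 ± 0.66 in vehicle tumours (SD, n = 6 each). The difference was -0.76 with an SE of 0.39 (95% interval -1.60 to 0.08), an unadjusted p of 0.0717 and an adjusted p of 0.999 by limma.

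Derl3, Jchain and Mzb1 belong to the secretory machinery. Derl3, probed at chr10:75358606-75358665 (mm9, plus strand), read -2.90, -2.86, -3.05, -2.69, -1.89 and -3.00 in FAKi tumours, against -2.99, -1.89, -1.67, -1.51, -1.49 and -0.85 in vehicle tumours. For Derl3, 5 FAKi tumours lay between -3.05 and -2.69, vehicle 1 lay in that band as well, and the other 5 vehicle tumours stood at or above FAKi 5, the highest FAKi tumour. The means were -2.73 ± 0.43 in FAKi tumours and -1.73 ± 0.71 in vehicle tumours (SD, n = 6 each). The difference was -1.0 with an SE of 0.33 (95% interval -1.71 to -0.29), so that FAKi tumours had 0.5 times the vehicle signal. Derl3 had the smallest unadjusted p of the members, 0.00945, which ranked 274 among all genes, and limma's adjusted p was 0.941. All 6 FAKi tumours lay below the vehicle mean. On slide 1 the difference was -0.31 and on slide 4 it was -1.53. A fit with a fixed slide block, whose difference rests on those slides alone, gave -0.92.

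Jchain, probed at chr5:88949919-88949978 (mm9, minus strand), had the widest spread of the members among FAKi tumours. It read -1.74, 0.58, -2.28, -1.25, 1.79 and -0.61 in FAKi tumours, against -0.24, 1.58, 1.15, 0.49, -0.80 and 0.50 in vehicle tumours. FAKi 5 was the highest of all 12 tumours and FAKi 3 the lowest. The span was 16.7-fold among FAKi tumours and 5.18-fold among vehicle tumours. The means were -0.59 ± 1.52 in FAKi tumours and 0.45 ± 0.87 in vehicle tumours (SD, n = 6 each), a difference of -1.03 with an SE of 0.64 (95% interval -2.40 to 0.34) and an adjusted p of 0.999 by limma.

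Mzb1 ran through -3.83, -2.19, -4.01, -3.34, -0.74 and -3.26 in FAKi tumours, against -3.61, -2.11, -1.54, -1.20, -3.74 and -2.08 in vehicle tumours. FAKi 5 was again the highest of all tumours and FAKi 3 the lowest, while vehicle 1 and 5 lay with the low FAKi tumours. The span over all 12 was 9.65-fold. The means were -2.89 ± 1.23 in FAKi tumours and -2.38 ± 1.06 in vehicle tumours (SD, n = 6 each), a difference of -0.51 with an SE of 0.59 (95% interval -1.79 to 0.76) and an adjusted p of 0.999 by limma.

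Tnfrsf17, which encodes the plasma cell survival receptor BCMA and is probed at chr16:11320045-11320104 (mm9, plus strand), was not well above background on any of the 12 arrays. Its probe averaged -7.25 ± 0.92 in FAKi tumours and -7.01 ± 0.53 in vehicle tumours (SD, n = 6 each), and no fold is given.

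**Figure D2:**
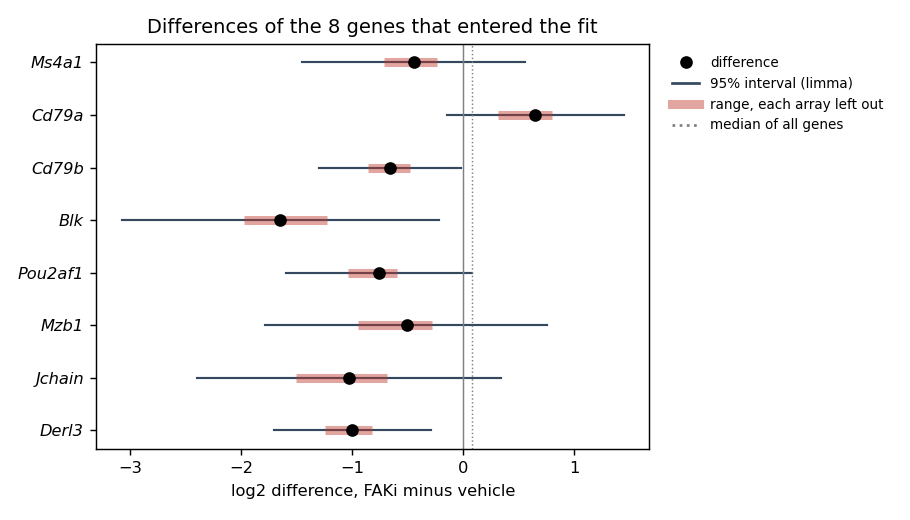
Difference of FAKi minus vehicle on the log2 scale (x axis) for the 8 members in the fit, as points with 95% intervals from limma (thin lines), the range when each array was left out in turn (thick bars) and the median of all genes, 0.08 (dotted line). The intervals of Derl3, Blk and Cd79b lie below 0 before any adjustment over all genes, and only the point of Cd79a lies above 0.

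Jchain and Mzb1 differed with opposite signs on the slides that held both treatments, while Derl3 was below 0 on both. Within slide 1, where FAKi 5 was set against vehicle 3 and 5, Jchain differed by 1.61 and Mzb1 by 1.90. Within slide 4, where FAKi 1 was set against vehicle 2 and 6, Jchain differed by -2.78 and Mzb1 by -1.73. The median of all genes was 0.27 within slide 1 and -0.27 within slide 4. With 1 FAKi tumour on each of these slides, slide and tumour cannot be told apart there. Without slide 1 the Jchain difference was -1.64 and that of Mzb1 -1.08, values chosen after the data were seen. With slide as a fixed block, where slides 1 and 4 alone set the difference, Jchain differed by -0.58 and Mzb1 by 0.08. Blk kept its sign in both slides, at -2.19 within slide 1 and -0.40 within slide 4. Pou2af1 read 0.21 within slide 1 and -1.86 within slide 4, and Cd79a 1.41 within slide 1 and -0.01 within slide 4.

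The spread between tumours of 1 treatment was itself wide for 3 members. The SD of Blk within groups, pooled over both, was 1.30, wider than that of 93.3% of genes. For Jchain it was 1.24 (92.3% of genes) and for Mzb1 1.15 (90.5% of genes), while Derl3 at 0.59 stood at the median of all genes, 0.59. Cd79b, at 0.51, was steadier than most.

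The members were next set against each other over the 12 tumours, in 28 pairs. Pearson's r was above 0 in 20 pairs, and 2 pairs passed a two-sided permutation test with 100000 resamples after Benjamini-Hochberg adjustment over the 28. Mzb1 and Jchain followed each other closely, with r = 0.89 over 12 tumours (permutation p = 0.00023, adjusted 0.00644) and Spearman's rho = 0.86 (adjusted permutation p = 0.0185). The r was 0.90 without the 2 tumours farthest from the median of Mzb1, and 0.89 with group means removed. Among FAKi tumours alone r was 0.98 and among vehicle tumours 0.76, with 6 tumours each. The adjusted permutation p stayed under 0.05 in 16 of 16 other settings, with r between 0.85 and 0.92. Slides held at most 3 arrays, too few for a value within a slide.

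Pou2af1 and Derl3 formed the other pair, with r = 0.83 over 12 tumours (permutation p = 0.00176, adjusted 0.0246). Spearman's rho was 0.76 and its adjusted permutation p 0.0616, so by rank the pair did not pass. The r was 0.74 without the 2 tumours farthest from the median of Pou2af1, 0.80 among FAKi tumours and 0.83 among vehicle tumours. With group means removed it was 0.78, and its adjusted permutation p was under 0.05 in 14 of 16 other settings, the exceptions being group means removed and vehicle 6 left out. Cd79b and Derl3 had r = 0.74 over 12 tumours and an adjusted permutation p of 0.0604.

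The receptor partners Cd79a and Cd79b had r = -0.24 over 12 tumours (permutation p = 0.47, adjusted 0.699) and rho = 0.06, and r was 0.11 without the 2 tumours farthest from the median of Cd79a. Ms4a1 had r = 0.25 with Cd79a and -0.34 with Cd79b, neither past the threshold (adjusted permutation p = 0.699 and 0.529). A p that misses the threshold does not show that the genes are unrelated.

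**Figure D3:**
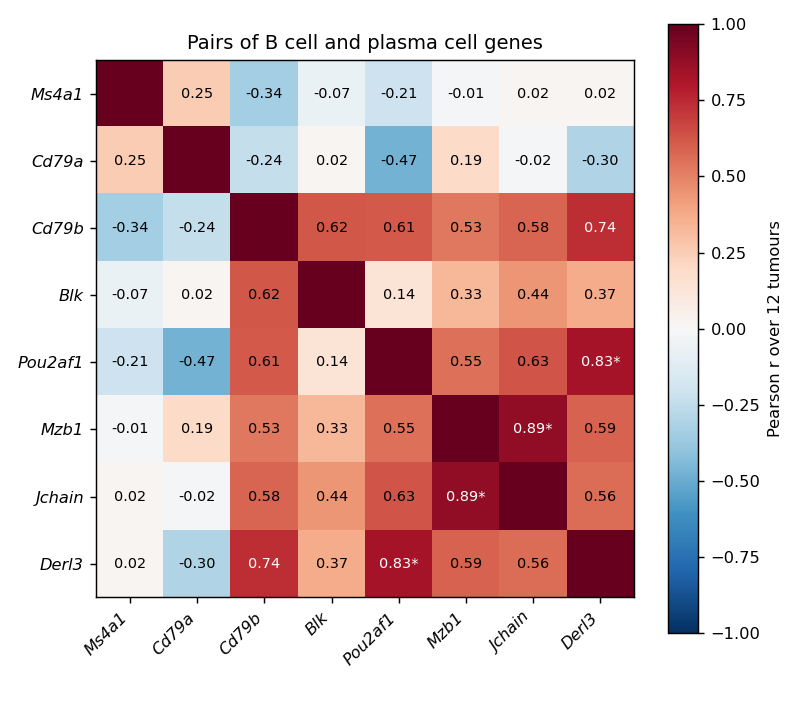
Pearson's r over the 12 tumours for each pair of the 8 members in the fit; colour runs from -1 (blue) to 1 (red), and an asterisk marks an adjusted permutation p under 0.05. Mzb1 with Jchain (0.89) and Pou2af1 with Derl3 (0.83) carry asterisks, and the rows of Ms4a1 and Cd79a stay pale beside the others.

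**Figure D4:**
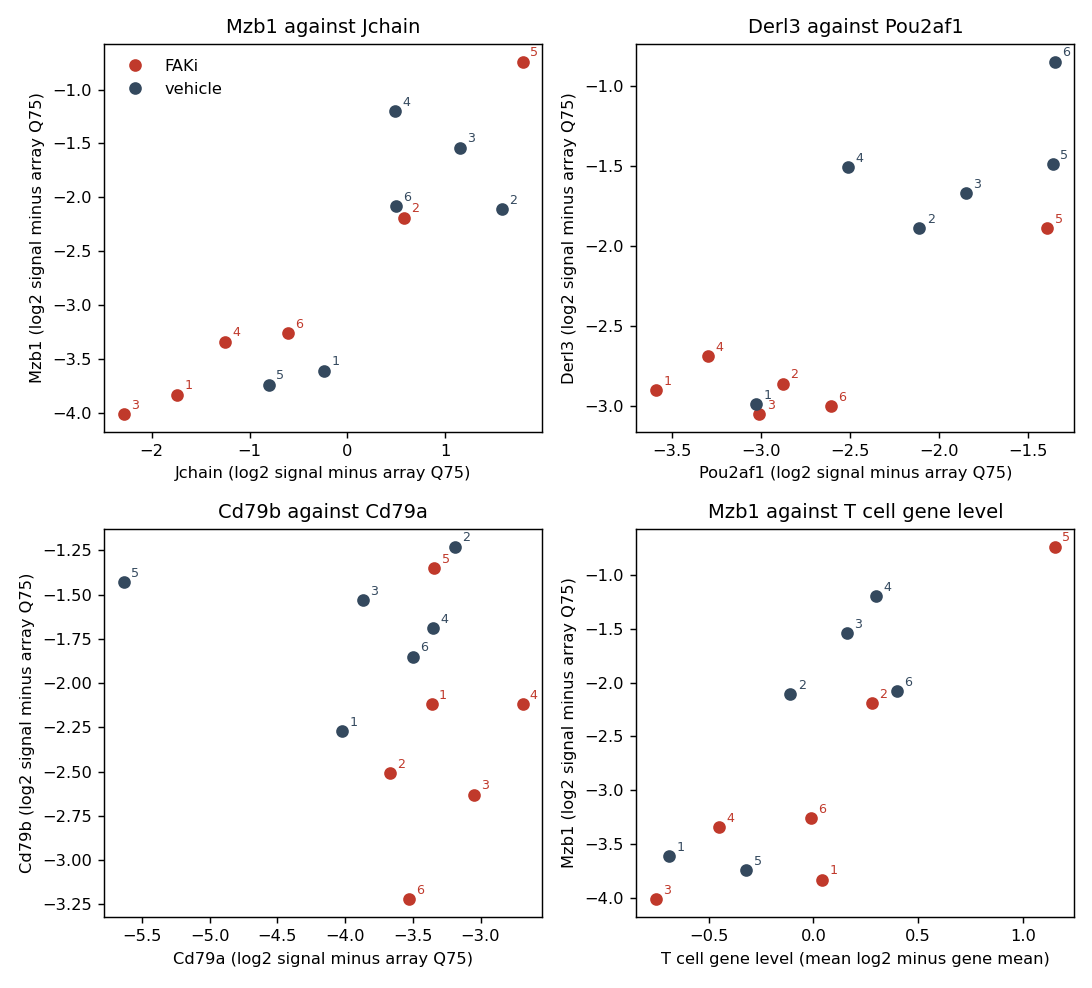
Each point is a tumour, numbered and coloured by treatment (FAKi red, vehicle dark). Axes give log2 signal minus the 75th percentile of the array for Mzb1 against Jchain, Derl3 against Pou2af1 and Cd79b against Cd79a, and the mean level of T cell genes on the x axis of the last panel; Mzb1 and Jchain lie along 1 line in both treatments (r = 0.89), and Cd79a and Cd79b do not (r = -0.24).

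The start-site sequences of Pou2af1 and Derl3 are given because these members moved together across tumours. RefSeq promoter windows (GRCm38.p6) were held for 5 of the 9 members. The 250 bases before each start are printed on the gene's strand, with a motif in capitals where one was found. The Pou2af1 window is chr9:51213440-51213689 on the plus strand, with TGACGTGG, a site form of the unfolded-protein-response factor XBP1, in capitals 54 to 61 bases before the start. The Derl3 window is chr10:75893148-75893397 on the plus strand, with an endoplasmic reticulum stress element read on the minus strand, its fixed letters (CCAAT, any 9 bases, CCACG) in capitals 138 to 156 bases before the start.
Pou2af1 promoter: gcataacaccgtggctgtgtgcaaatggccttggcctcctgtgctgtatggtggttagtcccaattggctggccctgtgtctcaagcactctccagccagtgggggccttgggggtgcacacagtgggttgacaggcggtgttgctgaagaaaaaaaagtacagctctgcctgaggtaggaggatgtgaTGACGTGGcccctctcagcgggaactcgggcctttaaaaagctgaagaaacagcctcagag
Derl3 promoter: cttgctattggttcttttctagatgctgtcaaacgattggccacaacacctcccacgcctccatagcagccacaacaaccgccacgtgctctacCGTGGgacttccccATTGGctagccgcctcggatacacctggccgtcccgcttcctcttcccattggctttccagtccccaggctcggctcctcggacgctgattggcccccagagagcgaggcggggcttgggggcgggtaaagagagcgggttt
Of 32851 promoter windows of 300 bases, searched on both strands, 0.676% held TGACGTGG and 0.119% held the stress element. The octamer ATGCAAAT, found in 1.74% of windows, and a palindromic EBF1 form (TCCC, any 2 bases, GGGA), found in 0.904%, were in none of the 5 member windows. A match describes these letters and says nothing of binding.

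Other genes of the B lineage, from lists chosen with earlier results known, gave no call. Of 20 genes of the B cell surface and its signalling, 17 were tested, 0 had an unadjusted p under 0.05 in either direction, and the median difference was -0.06. Bank1, a B cell scaffold protein, differed by 0.93 and Ralgps2, a Ral exchange factor, by -0.48, with adjusted p of 0.999 by limma for both. The 5 probes of Ralgps2 lay between -1.62 and -0.33. Bank1 was well above background on 6 of 6 FAKi and 4 of 6 vehicle arrays. Among 12 of 13 B lineage transcription factors tested, 0 had an unadjusted p under 0.05 and the median was 0.05. Pax5, which holds B cell identity, differed by 0.30, Tcf3 by 0.21 and Id3, an inhibitor of E proteins, by -0.43.

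Among plasma cell regulators, of 12 listed genes 11 were tested, 0 had an unadjusted p under 0.05, and the median was 0.13. Xbp1, which drives the secretory programme, differed by -0.10 (3 probes, -0.10 to 0.09) and Prdm1, which ends the B cell programme, by -0.16. Irf4 differed by -0.01, Eaf2 by 0.32 and Sdc1, the plasma cell antigen CD138, by 0.24 (3 probes, 0.24 to 0.87). Xbp1 and Sdc1 are also made by epithelial cells, and their bright signals here, with means of 3.96 and 4.53 in FAKi tumours and 4.05 and 4.29 in vehicle tumours, are those of the whole piece. Cd38, an ectoenzyme of plasma cells and other leukocytes, lay between 1.82 and 2.72 in FAKi tumours, against 1.91 to 4.16 in vehicle tumours, a difference of -0.76 with an adjusted p of 0.999 by limma. Of 21 secretory pathway genes all 21 were tested, 0 had an unadjusted p under 0.05, and the median was -0.17. The 2 of smallest p, Derl1, a relative of Derl3 in protein disposal, and Dnajc3, a co-chaperone, differed by -0.48 and -0.64, and the 2 probes of Derl1 by -0.48 and 0.07.

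Immunoglobulin probes read antibody RNA itself, although a probe for 1 variable segment covers few clones. Of 11 probes 9 were tested, and 1 of them had an unadjusted p under 0.05, lower in FAKi tumours. The 9 differences of FAKi minus vehicle ran from -1.81 to 0.54, with 4 below 0 and 5 above, and their median was 0.13. That median had no settled sign, being -0.41 without FAKi 5, -0.26 without vehicle 5, -0.18 without vehicle 3, -0.15 without FAKi 2, -0.76 without slide 1 and -0.05 in the authors' deposited table. The brighter Igh-VJ558 probe read -0.23, 1.71, -1.24, -0.72, 3.05 and -0.48 in FAKi tumours, against -0.13, 1.19, 0.77, 0.98, -1.71 and 0.24 in vehicle tumours. FAKi 5 was again the highest and vehicle 5 the lowest of the 12. Its difference was 0.13, and that of Igkv4-72, the probe of highest mean, 0.14. Ighg3, the constant region of IgG3, named after its values were seen, ran from -1.95 to 0.07 in FAKi tumours, against -2.19 to 3.27 in vehicle tumours, and differed by -1.67 with an SE of 0.73, an unadjusted p of 0.0387 and an adjusted p over all probes of 0.966 by limma. Near-identical segments can share these probes.

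For factors that feed and place B cells, of 15 listed genes 14 were tested, 1 had an unadjusted p under 0.05, lower in FAKi tumours, and the median was -0.24. That gene, Il7, a cytokine for early lymphocytes, was well above background on 1 of 6 FAKi and 6 of 6 vehicle arrays, ranging from -8.62 to -4.44 in FAKi tumours, against -6.65 to -3.72 in vehicle tumours. It entered the fit through the vehicle arrays and most of its FAKi values were not well above background, so no fold is given and its place in that count is no support for a difference. Cxcl13, the chemokine that draws B cells into follicles, read -4.75, -2.93, -2.40, -4.27, -2.78 and -1.56 in FAKi tumours, against -4.15, -1.68, -0.67, -2.30, -0.83 and -1.34 in vehicle tumours. In 3 vehicle tumours Cxcl13 stood above every FAKi tumour, and FAKi 1, FAKi 4 and vehicle 1 were the lowest. The difference of Cxcl13 was -1.29 with an SE of 0.63 and an adjusted p of 0.999 by limma. Tnfsf13b, which encodes the survival factor BAFF, differed by -0.20, with its 3 probes between -0.37 and 0.42. With slide as a fixed block the median of this list was 0.28.

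Markers of other cells in the piece were read beside the members. T cell markers (15 of 15 tested) had a median difference of 0.09, against -0.21 with 12 of 15 below 0 without FAKi 5 and 0.44 with 0 of 15 below 0 when slide was a fixed block. Trat1, a T cell receptor adaptor, differed by 0.49, with its probes between -0.17 and 0.49. A list's level is the mean over its genes of the log2 value minus each gene's own mean, and the T cell level ran from -0.75 to 1.15 in FAKi tumours, against -0.69 to 0.40 in vehicle tumours. Plasmacytoid dendritic cell markers (10 of 10) had a median of -0.11, with Ly6d at -0.87 and Runx2 at -0.29 (probes -0.29 to 0.06), and their level ran from -0.57 to 0.45 in FAKi tumours, against -0.49 to 0.58 in vehicle tumours. Lymph node stroma and follicular dendritic cell markers (9 of 11) had a median of -0.27, with 7 of 9 below 0, beside 39.5% of all genes. Within slide 1 that median was 0.48 with 2 of 9 below 0, and without vehicle 6 it was -0.07 with 5 of 9. In that list Enpp2, an enzyme of lymph node venules, differed by -1.01, with its 3 probes between -1.01 and 0.57. Acinar markers (14 of 17) had a median of 0.44 with 13 of 14 above 0, against 0.10 with 5 of 14 below 0 when slide was a fixed block. Within slide 4 the acinar median was -0.48, with 11 of 14 below 0, beside 17906 of all 27354 genes. Of the same genes, 14594 were below 0 with slide as a fixed block and 9873 within slide 1. Without FAKi 5 that number was 10981, and without vehicle 6 it was 9221. The acinar level ran from 0.13 to 0.62 in FAKi tumours, against -0.62 to 0.46 in vehicle tumours. Prss2 and Try4, both trypsinogens, differed by 1.23 and 1.67. Epithelial markers (10 of 10) had a median of -0.03, with Tff2 at 1.39 and Sox9 at -0.64 (probes -0.64 to 0.04), and fibroblast markers (10 of 10) a median of 0.01, with Pdgfrb at 0.32 and Thy1, a marker of T cells too, at 0.34. Each of these 6 lists gave 0 calls at an adjusted p under 0.05 by limma. An unadjusted limma p under 0.05 was reached by 1 gene each in the lymph node, acinar and epithelial lists. These were Enpp2 (0.0196, lower in FAKi tumours), Prss2 (0.00765, higher) and Tff2 (0.0479, higher). The T cell, plasmacytoid dendritic cell and fibroblast lists had 0 such genes. The part of these markers in the members' differences was not tested.

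The 8 members against the mean levels of the T cell, acinar and plasmacytoid dendritic cell lists gave 24 relations over 12 tumours, of which 3 passed the permutation test after adjustment. Mzb1 followed the T cell list, with r = 0.83 (adjusted permutation p = 0.0127) and rho = 0.80. FAKi 5 was the highest tumour for both. The r was 0.70 without the 2 tumours farthest from the median of the list level, and 0.88 with group means removed. Without FAKi 5 it was 0.76 and the adjusted permutation p 0.0799. Jchain had r = 0.69 with the T cell list (adjusted permutation p = 0.07), and 0.80 with group means removed. For Derl3 the r with that list was 0.48 (adjusted permutation p = 0.246), and 0.74 with group means removed. Pou2af1 followed the plasmacytoid dendritic cell list with r = 0.77 (adjusted permutation p = 0.032) and Derl3 with r = 0.74 (adjusted permutation p = 0.0356), and without FAKi 5 neither passed (0.0799 for both). Their rho values were 0.87 and 0.76, and r without the 2 tumours farthest from the median list level was 0.67 and 0.66. The Pou2af1 relation passed in 12 of 16 other settings and that of Derl3 in 8 of 16. Mzb1 did not pass with this list (r = 0.59, adjusted permutation p = 0.133). The list's level is that of the whole piece and is no count of such cells. With the acinar list Cd79a had r = 0.59 (adjusted permutation p = 0.121), Cd79b -0.62 (adjusted permutation p = 0.127) and Blk -0.59 (adjusted permutation p = 0.133). With group means removed these r values were 0.43, -0.37 and -0.33. Ms4a1, read close to background, had r = 0.32 with that list (adjusted permutation p = 0.496), and 0.73 with group means removed. The acinar relation passed in 2 of 16 other settings for Ms4a1, 1 of 16 each for Cd79a and Blk, and 0 of 16 for Cd79b. The part of these lists in the members' values was not tested.

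Genes outside the members that were most like Cd79a and Jchain in pattern were named by r over the 12 tumours, leaving out predicted and unnamed genes. For Cd79a the 5 were Acad12 (0.94), Wdr20 (0.91), Gpr119 (0.91), Gal3st1 (0.90) and Rbp4 (0.90). None of the listed B lineage genes was among them. For Jchain, whose r with the member Mzb1 was 0.89, the 5 were Cxcl5 (0.87), Rhof (0.86), Ido1 (0.85), Dennd3 (0.85) and Iglv1 (0.83), of which Iglv1 is an immunoglobulin light chain segment. Genes needed a value on every array, and these r values are a description with no p. They are the highest among all such genes, and Ms4a1, read close to background, reached 0.95 by the same search.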

How the data were processed

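Total RNA of 12 tumours was labelled with Cy5 and hybridised to 1-colour Agilent arrays, 6 FAKi and 6 vehicle. Per the file headers, the deposited scanner intensity values were made with Feature Extraction 11.5.1.1, which subtracted a spatially fitted background and detrended each array, with probes placed on mm9. The authors' deposited table holds log2 values for 38569 probes, and per the submitters' processing notes limma was used; the sources used here do not give its normalization.

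From the intensities, log2 was taken and outlier spots (71 to 156 an array) were dropped. Each array's 75th percentile over spots was then subtracted, and spots of a probe were averaged. No spot was saturated. Of 56605 probes, 32994 were named by accession, 10224 by symbol and 520 by synonym through RefSeq, and 12867 kept the array's name. A gene was represented by its brightest probe among those well above background on at least 6 arrays (40460 probes, 27354 genes). FAKi minus vehicle was tested with limma 3.58.1 (R 4.3.3, lmFit and eBayes, no covariate) with Benjamini-Hochberg adjustment over all genes, at 0.05. Correlations used permutation tests with 100000 resamples (scipy 1.17.1), two-sided. Promoters came from RefSeq (GRCm38.p6).

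The members and the gene lists were chosen with earlier results of these data known. Genes named were all members, the 2 of smallest unadjusted p in each list, 8 regulators chosen whatever their values, the 2 brightest immunoglobulin probes and the 5 genes most like Cd79a and Jchain, leaving out predicted and unnamed genes. The values of 1 gene named by this rule are not reported here. On simulated data of 27241 genes with the spread of this comparison, the fit recovered 8.8% of genes shifted by 1 log2 unit, 66.8% by 2, 89.8% by 3 and 96% by 4, with 6.9 false calls on average. Alternatives were quantile normalization, normexp (offset 50), median centring, the deposited table, other probe filters and probe means, slide and replicate blocks, a variance trend and leaving out arrays. The deviations of same-numbered FAKi and vehicle tumours had r over 0.1 in 4 of 6 pairs and below 0 in the other 2 (from -0.12 to 0.48), so the numbers were not taken as pairs, which needed every pair over 0.1. No sequence of Mzb1 is shown. The number of arrays limits the precision.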

Additional observations from a re-analysis of the deposited data

Results flagged for a closer look

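In 5 of 78 groups of 6 tumours examined, 1 tumour stood apart from the rest, its gap to the nearest other over the group's range passing Dixon's critical value of 0.625. Chance gives about 1 in 20 groups, or 3.9 here. Derl3 in FAKi 5 was -1.89, with the next FAKi tumour at -2.69. Cd79a in vehicle 5 was -5.63, with the next vehicle tumour at -4.02. The second Ms4a1 probe in FAKi 6 was -7.07, with the next FAKi tumour at -8.22, on a probe not well above background in any FAKi tumour. Pax5 in FAKi 1 was -3.05, with the next FAKi tumour at -2.19. Id3 in vehicle 1 was 2.61, with the next vehicle tumour at 3.55. Without FAKi 5 the Derl3 difference of FAKi minus vehicle was -1.17, and without vehicle 5 that of Cd79a was 0.31.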

How the results depend on the processing

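Over 214 values of the 8 members under other settings, 207 kept their sign, 7 turned and 0 passed the threshold; the smallest adjusted p by limma was 0.174, for Blk (-2.11) when vehicle 5, vehicle 6 and FAKi 6 were left out together, a setting chosen after the data were seen. The values that turned were Ms4a1 with normexp (0.08), Mzb1 with slide as a fixed block (0.08), Cd79b (0.12), Pou2af1 (0.21), Mzb1 (1.90) and Jchain (1.61) within slide 1, and Cd79a within slide 4 (-0.01). The cause was not tested. With each array left out in turn, differences ran from -0.71 to -0.24 for Ms4a1, 0.31 to 0.80 for Cd79a, -0.86 to -0.48 for Cd79b, -1.98 to -1.23 for Blk, -1.04 to -0.60 for Pou2af1, -0.95 to -0.28 for Mzb1, -1.51 to -0.69 for Jchain and -1.25 to -0.82 for Derl3. Genes called over the whole table were 0 to 3 with an array left out, the 3 being without FAKi 1, and 0 in the other fits. Genes with an unadjusted p under 0.05 numbered 1311 in the fit reported, 496 with slide as a fixed block, 762 without FAKi 4, 872 without FAKi 2, 3774 without vehicle 6, 804 without slide 1 and 4805 with the 3 arrays above left out. The fixed block takes its difference only from slides 1 and 4, the slides that held both treatments. The replicate block gave 0 calls, 1666 genes and 4 members with an unadjusted p under 0.05, and 1 of 6 tumours matched its own number best; it changed no call, and Pou2af1 had an unadjusted p of 0.00859 and an adjusted p of 0.795 by limma under it. Pairs of members past the threshold were 2 to 5 with an array left out (5 without vehicle 5) and 1 with group means removed. Relations with other cells' lists past it were 0 to 4 with an array left out (0 without FAKi 5, 1 without vehicle 3 or vehicle 6), 5 with normexp and 6 with group means removed. Ms4a1 and Tnfrsf17 were limited by signal near background.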
